A study of Mus musculus with 4 samples.

Results

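The stromal identity transcription factors are the 10 genes Ebf1, Ebf2, Ebf3, Foxc1, Foxp2, Prrx1, Prrx2, Twist1, Twist2 and Nr2f2, out of 37310 annotated genes. They were chosen by symbol as factors that specify marrow stroma and skeletal mesenchyme. Their values were not used, although earlier results of these data were known. Their counts were summed over annotated transcripts in each library and compared between wild-type C57Bl/6 mice aged 3 months (mature) and 24 months (elderly), which the study's methods describe as males. Each age had 2 libraries. The study's methods describe poly(A) selection, except for certain samples processed as total RNA, among them a sample labelled by an age in weeks. Whether any library used here is among these is not stated. The labels and methods describe, for each group, RNA combined from 3 or 4 mice, whereas the sample titles number single mice, so how many mice a library holds is not settled. An SD with n = 2, and each p-value, therefore describes the spread between libraries, which may be partly technical. The labels name bone marrow as the tissue, whereas the study's methods describe a sort of marrow cells that carry the leptin receptor (LEPR+) and lack CD45, CD31 and Ter119 (Lin-).

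LEPR+ marrow stromal cells surround the sinusoids, secrete CXCL12 and stem cell factor, and are a source of osteoblasts and marrow adipocytes in adult bone. Their identity rests on several families of transcription factors. The EBF proteins and FOXC1 are known for keeping these cells in their niche-supporting state, PRRX and TWIST proteins mark mesenchyme from the limb bud onward, and TWIST proteins restrain osteoblast differentiation.

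The libraries held between 10472117 and 15650518 counts. Levels are given as CPM, that is, counts scaled by library size and edgeR's TMM factor. Lepr, which defines the sorted cells, was counted at 6418 and 5665 CPM in mature and 4121 and 5707 CPM in elderly libraries. Ptprc, which encodes CD45, had between 1 and 12 counts per library, although only 152 of its bases could be counted. Transcripts of other marrow cells were present and differed with age. The summed level of 7 neutrophil markers was 1148 to 2009 CPM in mature and 4162 to 4318 CPM in elderly libraries.

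Counting rules decide what these values mean. Of the 10 genes' 47 annotated transcripts, 17 have no base of their own, that is, no base covered by exons of that transcript alone, and no transcript of this kind had a count in any library. Coding bases shared by several transcripts of Ebf1, Ebf3, Prrx1, Prrx2, Foxp2 and Nr2f2 therefore contributed nothing. Ebf2, Foxc1, Twist1 and Twist2 are annotated with 1 transcript each and could be counted over their whole length. For Ebf3 only 301 bases could be counted, 5.99% of the longest transcript. No exonic base of the 10 genes was shared with another gene.

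The coding sequences of related family members were compared, because reads of 40 bases can be assigned to one paralog only where the sequences differ. Of 8 pairs, 2 shared a stretch of 40 bases or more, and these are printed in lower case from the GENCODE M1 coding sequences, in the sense direction.

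Foxc1 and Foxc2, 53 bases: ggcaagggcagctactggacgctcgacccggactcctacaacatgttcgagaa

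Nr2f1 and Nr2f2, 59 bases: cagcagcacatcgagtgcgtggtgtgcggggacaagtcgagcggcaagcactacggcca

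The first stretch holds 16 windows of 40 bases and the second 21. Within the coding sequences, only reads in these windows could be exchanged by exact match. The longest stretch shared by Twist1 and Twist2 was 23 bases, that of Ebf1 and Ebf3 was 24 and that of Prrx1 and Prrx2 was 19. The coding sequences of these paralogs differed at every 40-base window. The bases counted for Ebf1, Ebf3, Prrx1 and Prrx2 were mostly noncoding, and noncoding bases were not compared between paralogs.

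**Figure D1:**
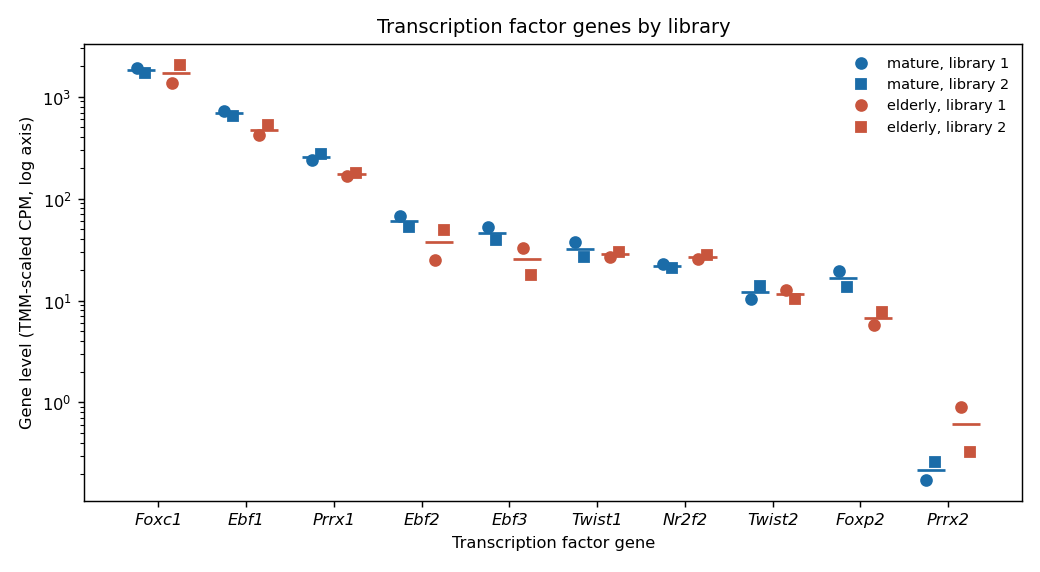
Level of each transcription factor gene in the 4 libraries, in TMM-scaled CPM on a log axis, with genes ordered by mean level, circles for library 1 and squares for library 2 of each age, and horizontal bars for the mean of the 2 libraries. Foxc1 stands highest at 1368 to 2060 CPM, and Prrx2 lowest, with 2 to 10 counts per library.

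Per kilobase of countable sequence, the levels of the 10 genes differed widely. Foxc1 had the highest level, with 454 ± 38.3 CPM per kb (SD, n = 2) in mature and 429.6 ± 123 CPM per kb (SD, n = 2) in elderly libraries. Ebf1 followed with 109 ± 9.1 and 75.0 ± 13.0 CPM per kb (SD, n = 2), apart from Ebf3, whose rank rests on its 301 bases and cannot be fixed. Prrx1 came next at 42.2 ± 4.34 and 28.4 ± 1.69 CPM per kb, and Twist1 at 19.8 ± 4.51 and 17.5 ± 1.52 CPM per kb (SD, n = 2 for each).

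In that order, the lowest library of Foxc1, Ebf1, Prrx1, Twist1, Twist2 and Nr2f2 was above the highest library of the gene that followed. Ebf2 and Twist2 overlapped, as did Ebf3 and Ebf1, and the lowest library of Foxp2, at 0.842 CPM per kb, was below the highest of Prrx2, at 0.976 CPM per kb. The order depends on which bases could be counted. Those of Ebf1 are mainly 2562 of Ebf1-001 and 3351 of the noncoding Ebf1-005. Those of Nr2f2 include 643 of Nr2f2-002, which had no counts. The plot of gene levels by library gives the same genes without the correction for length.

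None of the 10 genes passed edgeR's quasi-likelihood test at an adjusted p under 0.05, a threshold that 0.423% of the 22214 genes tested passed in the lower and 1.94% in the higher direction. At an unadjusted p under 0.05, 5 of the 10 were lower and 0 higher in elderly libraries, against 3.83% of all genes lower. Over all genes, 2428 passed in either direction, 850 of them lower. DESeq2 called 1 of the 10, and edgeR's exact test, for which the study set a dispersion of 0.2, called 0. Both elderly libraries lay below both mature ones for 5 genes, Foxp2, Ebf3, Ebf2, Prrx1 and Ebf1, and above them for 2, Nr2f2 and Prrx2. The same was true of 18.9% of all genes tested in the lower and 22.0% in the higher direction. Among the 7047 genes with a mean of at least 10 CPM, 1678 were lower and 1578 higher without overlap. The ages overlapped for Foxc1, Twist1 and Twist2.

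**Figure D2:**
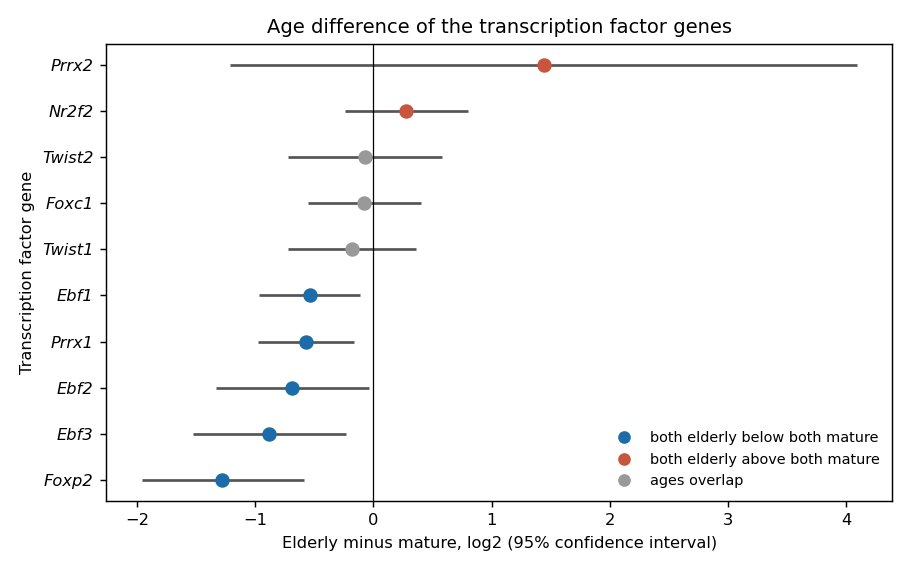
Elderly minus mature difference of each gene on the log2 scale (points) with its 95% confidence interval from edgeR's quasi-likelihood fit (lines), coloured by whether the 2 ages overlap. The intervals of Foxp2, Ebf3, Ebf2, Prrx1 and Ebf1 lie below 0, and that of Prrx2 runs from -1.21 to 4.09.

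The median difference of the 10 genes was -0.36 on the log2 scale, and that of all genes tested was -0.01. In bulk RNA, fewer cells of a type and less RNA per cell cannot be told apart. Of 19 stromal niche genes, 16 had a negative difference, with a median of -0.36, and 1 passed the test. Without overlap, 12 of the 19 were lower and 2 higher. Where the libraries were scaled to the stromal niche genes instead, an alternative chosen after seeing the data, the median of all genes moved by 0.42 and 2 of the 10 factors (Ebf1 and Foxp2), rather than 5, were lower without overlap. On that scale the log2 difference was -0.14 for Ebf1, -0.16 for Prrx1 and -0.89 for Foxp2.

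The EBF genes encode factors with a zinc-coordinating DNA-binding domain and a helix-loop-helix dimerization domain. Ebf1 (chr11:44430819-44821593, plus strand, mm9) was counted at 732 and 650.4 CPM in mature and 417 and 533 CPM in elderly libraries. Both elderly libraries were lower, and the nearest libraries of the 2 ages differed by 1.22 times. The mean was 691 ± 57.7 CPM in mature and 475 ± 82.0 CPM in elderly libraries (SD, n = 2), a difference of -0.54 on the log2 scale (SE 0.20, 95% interval -0.97 to -0.11), which missed the threshold (edgeR's quasi-likelihood test, adjusted p = 0.262). The adjusted p lay between 0.142 and 1.0 over 16 alternatives.

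Ebf1 is also required for B-cell commitment, so B-lineage markers were read beside it. Of 13 such markers 11 were counted, 10 of them with a positive difference, and their summed level was 44.2 to 65.2 CPM in mature and 88.0 to 139 CPM in elderly libraries. Rag1, which encodes a subunit of the antigen receptor recombinase, rose by 1.23 on the log2 scale (SE 0.26, adjusted p = 0.0316, edgeR). Cd79b and Cd22 had no counts. How many of their bases could be counted is not given, so these zeros cannot be read as absence. Rag1 was the 1 marker called of the 11 tested, Igll1 had a negative difference (-0.47, SE 0.71), and the part of B-lineage RNA in the Ebf1 value was not tested.

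Ebf2, known for marking mesenchymal progenitors and for its role in brown fat (chr14:67852129-68048604, plus strand), was counted at 67.7 and 52.8 CPM in mature and 25.0 and 49.6 CPM in elderly libraries. The ages were separated by 1.06 times at their nearest point, and the elderly libraries differed from each other by 1.99 times. The log2 difference was -0.69 (SE 0.30, interval -1.33 to -0.04, edgeR adjusted p = 0.400). It was -0.25 without the first elderly library and -1.27 without the second.

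Ebf3, which is known for preventing LEPR+ cells from filling the marrow with bone (chr7:144385356-144506128, minus strand), was counted at 53.1 and 39.4 CPM in mature and 32.8 and 17.7 CPM in elderly libraries. Every elderly value was below every mature one, by 1.20 times at the nearest point. The log2 difference was -0.88 (SE 0.30, interval -1.53 to -0.23, edgeR adjusted p = 0.219). It was -1.36 without the first elderly library and -0.49 without the second. Between 93.4% and 95.3% of its counts in each library came from 1 stretch of 274 bases, the noncoding first exon of Ebf3-204. The level of Ebf3 thus rests on that one exon.

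The forkhead factor FOXC1 is known for the formation and upkeep of the CXCL12-rich stromal niche. Foxc1 (chr13:31898515-31902504, plus strand) was counted at 1918 and 1702 CPM in mature and 1368 and 2060 CPM in elderly libraries. The elderly libraries held both the lowest and the highest value, so the ages overlapped. The log2 difference was -0.08 (SE 0.22, edgeR adjusted p = 0.948), with an interval of -0.55 to 0.40, and its sign turned with the scaling to stromal genes (0.30) and without the first mature or the first elderly library (0.02 and 0.21). Per 1000 Lepr counts, Foxc1 had 299 and 300.4 counts in mature and 332 and 361 in elderly libraries, and in this ratio both elderly libraries were higher.

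FOXP2, a forkhead repressor studied in brain and in growing cartilage, showed the largest difference among the genes with more than 10 counts in every library. Foxp2 (chr6:14851349-15391977, plus strand) was counted at 19.4 and 13.5 CPM in mature and 5.77 and 7.74 CPM in elderly libraries, from 224, 157, 64 and 119 counts. Both elderly libraries were well below both mature ones, with a factor of 1.75 between the nearest libraries. The log2 difference was -1.28 (SE 0.32, interval -1.96 to -0.59), a level 0.413 times that of mature cells, at an adjusted p of 0.0611 in edgeR's quasi-likelihood test.

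The call of Foxp2 depended on the processing. It passed 0.05 in 8 of 16 alternatives, among them DESeq2 (adjusted p = 0.0258), edgeR's filterByExpr (adjusted p = 0.0487) and protein-coding genes only (adjusted p = 0.0197). The adjusted p ranged from 0.00116 to 0.684 over all 16, and the exact test gave the highest value. The direction was negative in every one of them, with log2 differences from -1.53 to -0.89. Foxp2 was also lower without overlap per 1000 counts of Lepr, with 3.02 and 2.39 counts in mature and 1.40 and 1.36 in elderly libraries. Per 1000 counts of Cxcl12 it had 1.65 and 0.987 against 0.80 and 0.84. Across all the factors, the ratio to Lepr was lower without overlap for 3, higher for 3 and overlapping for 4. The ratio to Cxcl12 was lower for 1, higher for 5 and overlapping for 4. Prrx2, with 2 to 10 counts per library, was among those higher in both ratios. The same shares over all genes were not computed, so these counts only describe the factors. Cxcl12 itself was lower without overlap in elderly libraries (log2 difference -0.63, SE 0.2, edgeR adjusted p = 0.176).

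PRRX1 is a paired-related homeodomain protein whose gene marks limb mesenchyme and skeletal progenitors. Prrx1 (chr1:165175247-165243841, minus strand) was counted at 238 and 275 CPM in mature and 166 and 180.0 CPM in elderly libraries. The ages did not overlap, with a factor of 1.32 between the nearest libraries, and the elderly libraries differed by 1.09 times. The mean was 257 ± 26.4 CPM in mature and 173 ± 10.3 CPM in elderly libraries (SD, n = 2), a log2 difference of -0.57 (SE 0.19, interval -0.98 to -0.16) that missed the threshold (edgeR's quasi-likelihood test, adjusted p = 0.203). Its ratio to Lepr overlapped between the ages, at 37.1 and 48.6 against 40.2 and 31.5 per 1000 Lepr counts.

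Prrx2, its paralog, was near the limit of detection. It had 2 and 3 counts in mature and 10 and 5 counts in elderly libraries, where 3 counts, taken as not detected, are 0.195 to 0.270 CPM. The ratio of the summed counts was 2.63 after scaling, with an exact 95% interval of 0.907 to 9.23 that covers counting error only. No change was detectable at this depth, although the library values did not overlap.

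TWIST1 and TWIST2 are basic helix-loop-helix proteins that bind E-boxes as dimers with E proteins. Twist1 (chr12:34642536-34644682, plus strand) was counted at 37.2 and 26.9 CPM in mature and 26.6 and 30.1 CPM in elderly libraries. Twist2 (chr1:93698038-93744605, plus strand) was counted at 10.4 and 13.8 CPM in mature and 12.8 and 10.3 CPM in elderly libraries. The ages overlapped for both genes. Their log2 differences were -0.18 (SE 0.25, interval -0.72 to 0.36) and -0.07 (SE 0.30, interval -0.72 to 0.58), with edgeR adjusted p = 0.882 and 0.965, and the sign of each turned with the stromal scaling and when single libraries were left out. The intervals leave room for a change of either gene in either direction.

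NR2F2 (COUP-TFII) is an orphan nuclear receptor of mesenchyme and of venous and lymphatic endothelium. Nr2f2 (chr7:77496832-77511621, minus strand) was counted at 22.8 and 20.9 CPM in mature and 25.4 and 27.8 CPM in elderly libraries. Both elderly libraries were higher, by 1.11 times at the nearest point. The log2 difference was 0.28 (SE 0.24, interval -0.24 to 0.80, edgeR adjusted p = 0.735). Of 10 endothelial markers 9 were counted, and their summed level was 26.4 to 40.4 CPM in mature and 46.5 to 47.9 CPM in elderly libraries. Of the 8 tested, 7 had a positive difference and 1 was called. Flt4, a receptor of lymphatic and sinusoidal endothelium, rose by 1.72 (SE 0.30, edgeR adjusted p = 0.0120). Pecam1, which encodes the CD31 used to exclude cells in the sort, had 13.5 and 25.2 CPM in mature and 15.1 and 6.64 CPM in elderly libraries (-0.84, SE 0.40, edgeR adjusted p = 0.481). Tek had no counts. How many of its bases could be counted is not given, so this zero cannot be read as absence. The part of endothelial RNA in the Nr2f2 value was not tested.

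Single transcripts were tested in a fit over all 42351 transcripts. Of the 10 genes' 25 tested transcripts, 22 had a negative and 3 a positive difference. The share of negative differences over all transcripts was not computed, and transcripts of the same gene are not separate results. Of the 25, 2 passed the threshold, both lower, as did 0.220% of all transcripts. They were Ebf1-004 and Foxp2-013. Transcripts were fitted with the main settings only, so whether these 2 calls hold under the alternatives was not tested.

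Ebf1-004 is a noncoding transcript whose only countable bases are an exon of 142 bases inside an intron of the coding transcripts, 4100 bases after the nearest coding-transcript exon and 12169 before the next. It had 123 and 121 counts in mature and 42 and 59 counts in elderly libraries. The log2 difference was -1.41 (SE 0.36, adjusted p = 0.0449, edgeR's quasi-likelihood test). The exon is printed because it carries the only Ebf1 difference that passed a test. It lies at chr11:44725640-44725781 (NCBIM37, plus strand) and has 41.5% G and C.

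Ebf1-004 exon: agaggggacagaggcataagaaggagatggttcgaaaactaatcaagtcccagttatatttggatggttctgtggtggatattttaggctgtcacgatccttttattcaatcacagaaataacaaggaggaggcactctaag

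The 2 transcripts that held most Ebf1 counts did not pass. Ebf1-001, counted over 2562 bases of its last exon, had 6117 and 4562 counts in mature and 2880 and 6303 in elderly libraries, with a log2 difference of -0.39 (SE 0.26, edgeR adjusted p = 0.753). Ebf1-005, counted over 3351 bases that directly follow a coding-transcript exon, had 2173 and 2814 counts in mature and 1669 and 1816 in elderly libraries (log2 difference -0.63, SE 0.24, edgeR adjusted p = 0.343). Ebf1-001 made up 72.3% and 60.5% of Ebf1 counts in mature and 62.2% and 76.9% in elderly libraries, so the 2 libraries of each age differed more than the ages did. All 5 tested Ebf1 transcripts had a negative difference.

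Foxp2-013 had 9 and 13 counts in mature and 0 in both elderly libraries. Against a floor of 3 counts per elderly library its level was at least 3.95-fold lower (edgeR adjusted p = 0.0447). All 8 tested Foxp2 transcripts had a negative difference. Those of Foxp2-011 (-0.04, SE 1.91) and Foxp2-012 (-0.17, SE 2.29) rest on 0 to 2 counts per library and give no direction. The most counted were Foxp2-002, with 91 and 53 counts in mature and 28 and 41 in elderly libraries (log2 difference -1.19, SE 0.42, edgeR adjusted p = 0.253), and Foxp2-201, with 56 and 30 against 15 and 25 (-1.24, SE 0.50, adjusted p = 0.392).

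Prrx1-004 held 95.5% to 96.4% of the Prrx1 counts in each library. It was not called, at a log2 difference of -0.51 (SE 0.23, edgeR adjusted p = 0.542). The retained-intron transcript Prrx1-003 had 107 and 120 counts in mature and 69 and 83 in elderly libraries, with a difference of -0.70 (SE 0.34, edgeR adjusted p = 0.601).

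**Figure D3:**
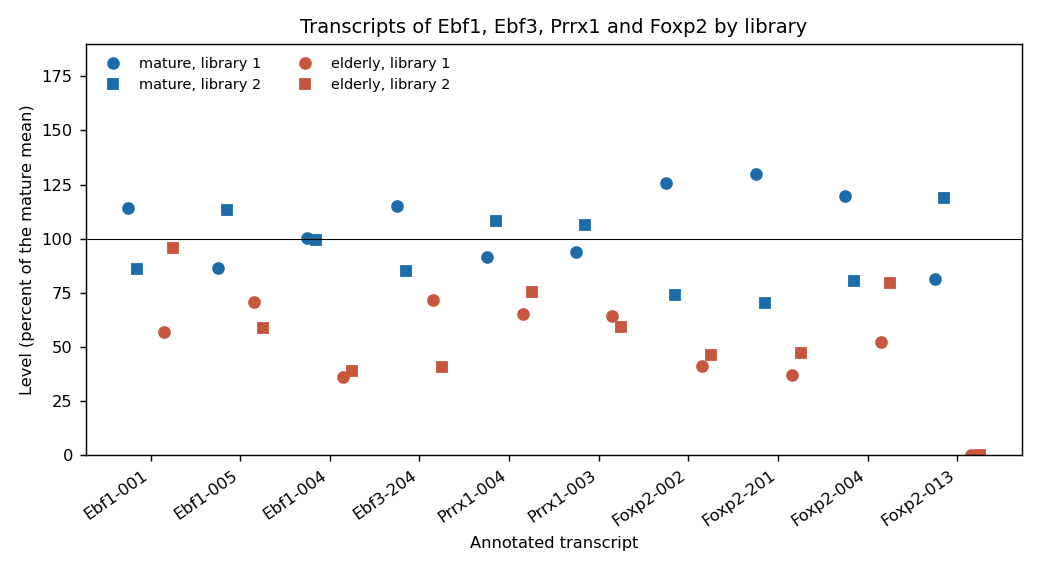
Level of 10 transcripts of Ebf1, Ebf3, Prrx1 and Foxp2 in the 4 libraries, as a percentage of the mean of the 2 mature libraries (line at 100). All 10 come from genes that were lower without overlap, so their positions are not a separate result. The ages overlap for Ebf1-001, as they do for Prrx1-201, which is not shown. Foxp2-013 has 0 counts in both elderly libraries.

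Genes that share a family with the 10 factors were read next. Of 16 paralogs 13 were tested and 0 passed edgeR's quasi-likelihood test, with a median log2 difference of -0.09. Foxc2 was closest, at 16.4 and 26.1 CPM in mature and 8.92 and 11.5 CPM in elderly libraries (-1.06, SE 0.31, adjusted p = 0.124). The ages did not overlap for Foxc2, unlike for Foxc1, and the difference between the 2 paralogs was not tested. Foxc2 passed the threshold in 5 alternatives.

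None of the remaining paralogs with a mean of at least 1 CPM passed the test (edgeR adjusted p from 0.682 to 0.999). Foxp1, which can pair with FOXP2, had 45.7 and 35.6 CPM in mature and 43.5 and 27.5 CPM in elderly libraries, and Foxp4 had a difference of -0.08 (SE 0.55). Msc had a difference of 0.04 (SE 0.27), Scx of -0.09 (SE 0.44), Alx4 of -0.30 (SE 0.43) and Shox2 of 0.22 (SE 0.36). Nr2f1, counted at 0.541 to 1.5 CPM, was far below Nr2f2, with a difference of 0.00 (SE 0.70), and Nr2f6 had a difference of 0.27 (SE 0.42). Tcf15 had 2.51 and 2.59 CPM in mature and 1.8 and 1.3 CPM in elderly libraries (-0.72, SE 0.51), and both elderly libraries were lower.

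Among 13 genes for partners of the factors, 1 rose and 1 fell. Id3 encodes an inhibitor that takes E proteins away from bHLH factors such as TWIST1. It was counted at 338 and 334 CPM in mature and 178 and 204 CPM in elderly libraries, a log2 difference of -0.82 (SE 0.19, edgeR adjusted p = 0.0407). Zfpm1 encodes the GATA cofactor FOG1 and is strongly expressed in erythroid and megakaryocytic cells. It rose from 16.1 and 17.3 CPM to 70.7 and 50.4 CPM (1.86, SE 0.25, edgeR adjusted p = 0.00261). The summed level of 7 erythroid markers was 76.5 to 215 CPM in mature and 735 to 765 CPM in elderly libraries, and their part in the Zfpm1 value was not tested. Zfpm2, the other FOG gene listed, was not called (-0.61, SE 0.52, edgeR adjusted p = 0.743). The EBF partner genes Zfp423 and Zfp521 were not called either, at 0.25 (SE 0.35) and 0.36 (SE 0.25).

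Of 44 genes for other skeletal transcription factors 43 were tested, 2 rose and 0 fell, with a median of -0.13. Gli1, a target and effector of hedgehog signalling, rose from 13.4 and 18.5 CPM to 59.8 and 68.8 CPM (2.01, SE 0.25, edgeR adjusted p = 0.00179). Zeb1, a zinc finger repressor of epithelial genes, rose from 78.2 and 59.3 CPM to 129 and 123 CPM (0.87, SE 0.21, adjusted p = 0.0487). The osteoblast factor gene Runx2, which TWIST proteins restrain, had 31.8 and 34.6 CPM in mature and 22.4 and 19.8 CPM in elderly libraries and was not called (-0.65, SE 0.24, adjusted p = 0.261). Of the stromal niche genes, Nt5e, which encodes the surface enzyme CD73, fell from 300.1 and 306 CPM to 145 and 162 CPM (-0.98, SE 0.19, adjusted p = 0.0171). These 5 calls were lost in the exact test at a dispersion of 0.2 and without either elderly library, and those of Id3, Zeb1 and Nt5e also without either mature library. With the stromal scaling Id3 and Nt5e, at -0.41 and -0.57, were not called. With RLE factors Id3 missed the threshold (-0.81, adjusted p = 0.0501, against 0.298 to 0.611 without single libraries).

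**Figure D4:**
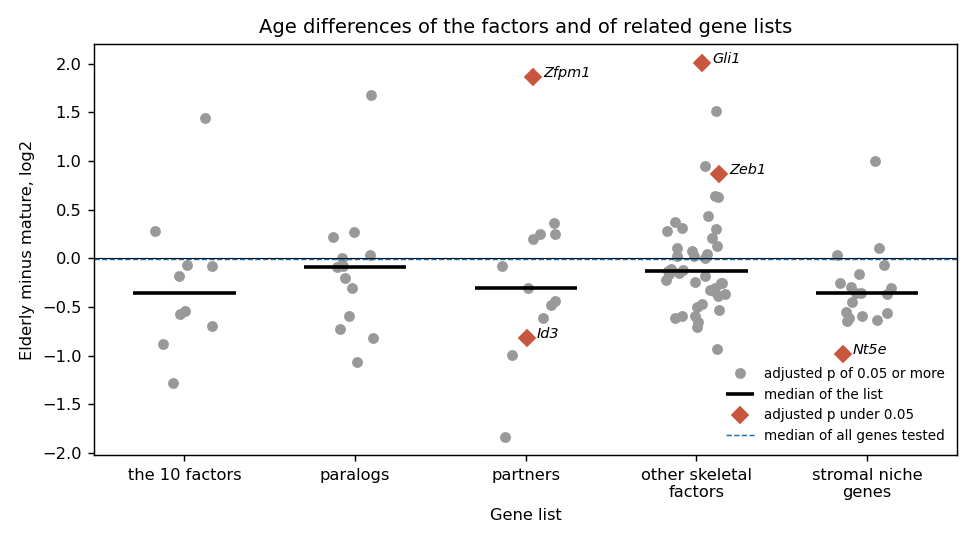
Elderly minus mature log2 difference of each tested gene in the 10 factors, their paralogs, their partners, other skeletal factors and stromal niche genes, with list medians (black bars) and the median of all genes tested (dashed line). Diamonds mark the 5 genes at an adjusted p under 0.05, and none is among the 10 factors.

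The promoters of the factors were read from RefSeq (GRCm38.p6), as windows from 250 bases before to 50 bases after the annotated start. Of the 10 genes 8 matched, with 9 windows, and Ebf2 and Foxp2 were not matched. CpG dinucleotides varied widely among them, from 2 in Nr2f2 and 6 in Prrx1 to 32 in Foxc1 and 46 in Ebf3, against a median of 7 over 32851 windows. The windows of Ebf3 and Prrx1 are printed as those with the most and the fewest CpG among the matched genes that were lower without overlap, and that of Foxc1 as the most highly counted gene, with each CpG in capitals. They lie at chr7:137314396-137314695 (minus strand), chr1:163313601-163313900 (minus strand) and chr13:31806396-31806695 (plus strand) and are written in the direction of transcription.

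Ebf3 promoter: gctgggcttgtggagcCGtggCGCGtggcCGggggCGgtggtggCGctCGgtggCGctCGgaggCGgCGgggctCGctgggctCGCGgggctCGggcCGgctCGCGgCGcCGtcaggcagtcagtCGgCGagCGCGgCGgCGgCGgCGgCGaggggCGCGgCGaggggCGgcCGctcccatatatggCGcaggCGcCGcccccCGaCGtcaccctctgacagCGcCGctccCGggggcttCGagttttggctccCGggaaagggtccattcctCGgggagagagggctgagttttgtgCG

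Prrx1 promoter: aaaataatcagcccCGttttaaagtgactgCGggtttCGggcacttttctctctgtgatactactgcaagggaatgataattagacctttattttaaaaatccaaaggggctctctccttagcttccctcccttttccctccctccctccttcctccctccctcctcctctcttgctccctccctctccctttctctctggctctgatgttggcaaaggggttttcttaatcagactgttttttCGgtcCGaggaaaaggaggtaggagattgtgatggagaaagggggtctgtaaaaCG

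Foxc1 promoter: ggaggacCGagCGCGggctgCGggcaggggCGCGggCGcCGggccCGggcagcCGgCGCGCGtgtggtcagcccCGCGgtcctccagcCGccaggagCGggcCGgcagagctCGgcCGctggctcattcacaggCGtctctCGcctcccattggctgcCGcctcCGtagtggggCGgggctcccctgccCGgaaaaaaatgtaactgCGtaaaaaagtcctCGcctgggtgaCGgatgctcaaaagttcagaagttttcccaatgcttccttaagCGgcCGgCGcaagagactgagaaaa

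The Ebf3 window has 77.0% G and C, the Foxc1 window 67.3% and the Prrx1 window 47.7%. On both strands 6 motifs were searched. The GC box GGGCGG was found 3 times in the Ebf3 window, once in that of Foxc1 and not in that of Prrx1, and it occurs in 35.7% of all windows. An E-box, CANNTG, was found in the Nr2f2 window and at 1 of the 2 Ebf1 starts, each with 2 matches, against 72.3% of all windows. The EBF palindrome, the forkhead core TGTTTAC and the nuclear receptor half-site AGGTCA had no match in the 9 windows, against 0.9%, 3.6% and 16.3% of all windows.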

How the data were processed

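The values the authors deposited are raw read counts per Ensembl transcript for each of 4 libraries. Per their methods and processing notes, adapters were removed with cutadapt, and reads were mapped to mm9 with HISAT2 and counted with featureCounts. The strand setting is not given in the sources used here. Transcripts were matched to GENCODE M1, and 388 unmatched ones, with 0.0785% to 0.0888% of the counts, were left out. Counts were summed per gene over 10472117 to 15650518 counts per library. Genes with a summed count over 2 were fitted with edgeR 4.0.16 (R 4.3.3, TMM factors, quasi-likelihood test, two-sided, age only) with Benjamini-Hochberg adjustment over all 22214 genes. The biological coefficient of variation was 0.265, and log2 differences use a prior count of 0.125. DESeq2 1.42.0 and other settings were alternatives. The tests were checked on simulated counts.

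The genes, lists and tests were chosen with earlier results of these data known. Named genes were the 10 factors, members of the paralog, partner, skeletal factor and niche lists at an adjusted p under 0.05 (at most 10 per list), paralogs with a mean of at least 1 CPM, and cell type markers. Zfp423, Zfp521, Zfpm2 and Runx2 fall outside that rule and were chosen after their values were seen.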

Additional observations from a re-analysis of the deposited data

How the results depend on the processing

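Depth and the bases that could be counted limit Prrx2, with 2 to 10 counts per library, and the number of libraries limits all tests. Of the 10 factors, the count called lower changed from 0 to 1 with DESeq2, RLE factors, filterByExpr, protein-coding genes only and the robust fit, and to 2 without a filter. Over all genes, the counts called lower and higher were 94 and 430. They were 153 lower with DESeq2, 29 and 179 with the exact test, 218 and 866 without a filter, 155 lower with protein-coding genes only, 188 and 691 with the robust fit, 155 lower with the most counted transcript per gene, and 39 and 791 with the scaling to stromal niche genes, which was chosen after seeing the data and left 2 instead of 5 factors lower without overlap. The cause was not tested.

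Leaving out 1 library at a time, where the lone library is assumed to vary like the others, gave 0 to 1 factors and 0 to 94 genes called lower, 0 to 580 genes called higher and 0 to 3 genes of the other lists called, against 5 with all libraries. Without the first mature library these were Zfpm1, Gli1 and Foxc2, of which Foxc2 was not among the 5. No gene was called lower or higher without either elderly library. The exact test called 0 of those 5.

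Samples with the same replicate number did not deviate together (correlation of within-age differences 0.045 over 14400 genes), so the numbers were not taken as pairs. With the replicate number as a block, 3 of the factors were called lower (Foxp2, Ebf3 and Ebf2), 314 genes lower and 962 higher, and 10 genes of the other lists.

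With the stromal scaling the log2 difference of Foxc1 was 0.30, of Twist1 0.24, of Twist2 0.37 and of Lepr 0.09. Without 1 library, that of Foxc1 ranged from -0.40 to 0.21, of Twist1 from -0.42 to 0.08 and of Twist2 from -0.26 to 0.12. The other 7 factors kept their sign in all alternatives run.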
